A study of Mus musculus with 10 samples.

Results

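The 10 genes described here are lamina propria macrophage and myeloid genes, and all 10 were found among the 54838 genes listed for each library. They are Dnase1l3, Adamdec1, Csf1r, Adgre1, Cd68, C1qa, C1qb, C1qc, Lyz2 and Itgax. The list was chosen by name, with the cKO and WT levels of these same libraries known, because Dnase1l3 and Adamdec1 showed the largest falls. The values of the 10 genes in cKO against WT are therefore a description and carry no test. All 10 also passed the filter on low counts, which left 14719 genes.

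Crypts of the jejunum were taken from 5 WT mice and 5 mice lacking Arid3a (cKO) for RNA-seq, with 1 library for each mouse. The cKO mice were VillinCre-ERT2+/-; Arid3a fl/fl, and whether the WT mice carried the Cre allele is not given in the sources used here. Both genotypes were given tamoxifen on 3 consecutive days and were culled 1 month after the first injection, and neither age nor sex is given in the labels. The Villin promoter drives Cre in intestinal epithelial cells, so the deletion was directed at the epithelium and not at the lamina propria cells that carry the 10 genes. Crypts were shaken off the tissue with EDTA after the villi had been scraped away, and cells of the lamina propria can come with them.

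The lamina propria is the connective tissue under the gut epithelium, and resident macrophages are its most abundant mononuclear phagocytes. They are replenished from blood monocytes, depend on signaling through the CSF1 receptor, clear dying epithelial cells and bacteria, and are the main local source of complement C1q. Dendritic cells share several of their genes, among them Itgax, and gut fibroblasts share Adamdec1.

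Levels are CPM, the reads of a gene scaled to a common library size after TMM normalization, and the levels of the 10 genes are compared with one another only in TPM, which accounts for transcript length. The libraries held 27050455 to 28152743 counts in WT and 28314069 to 31053622 counts in cKO mice, so at 1 CPM a gene rested on 26.4 to 29.9 reads. Arid3a itself was lower in every cKO library, with 1.91 to 2.75 CPM in WT and 0.303 to 1.17 CPM in cKO crypts (log2 fold change −1.84, standard error 0.32, adjusted p = 0.00204, quasi-likelihood test of edgeR, Benjamini-Hochberg adjustment). The cKO libraries with the most remaining Arid3a counts were replicates 4 and 5. Adjusted p-values below come from the same test over all 14719 genes. In bulk RNA, fewer cells of a type and less RNA per cell cannot be told apart.

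One cKO library, replicate 4, stood apart in most of these genes. In cKO replicate 4 the summed level of the 10 genes was 105 TPM, against 12 to 33.0 TPM in the other 4 cKO libraries and 33.4 to 85.7 TPM in WT. The summed level of 14 fibroblast markers was also highest there, at 111 TPM against 35.9 to 66.6 TPM in the other cKO libraries and 22.1 to 62.4 TPM in WT. Fbln1 had the highest mean of these markers, at 19.4 TPM in WT and 40.9 TPM in cKO, and was called higher in cKO. The sum therefore carries the rise of this gene and does not show all markers alike. Among the fibroblast markers Col3a1, a collagen of connective tissue, reached 66.1 CPM in cKO replicate 4, against 2.85 to 32.4 CPM in WT. The highest cKO library also exceeded every WT library in Col1a1, Col1a2, Pdgfra, Lum and Fbln1. In Dcn, Postn, Thy1, Pdpn, Dpt, Pdgfrb, Grem1 and Twist1 no cKO library did. The part of these connective tissue transcripts in the myeloid values was not tested. Results that move without this library are also given without it, except the correlations with marker lists and with other genes. The library was singled out by its high level of the 10 genes, so lower myeloid values without it follow in part from that choice.

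**Figure D1:**
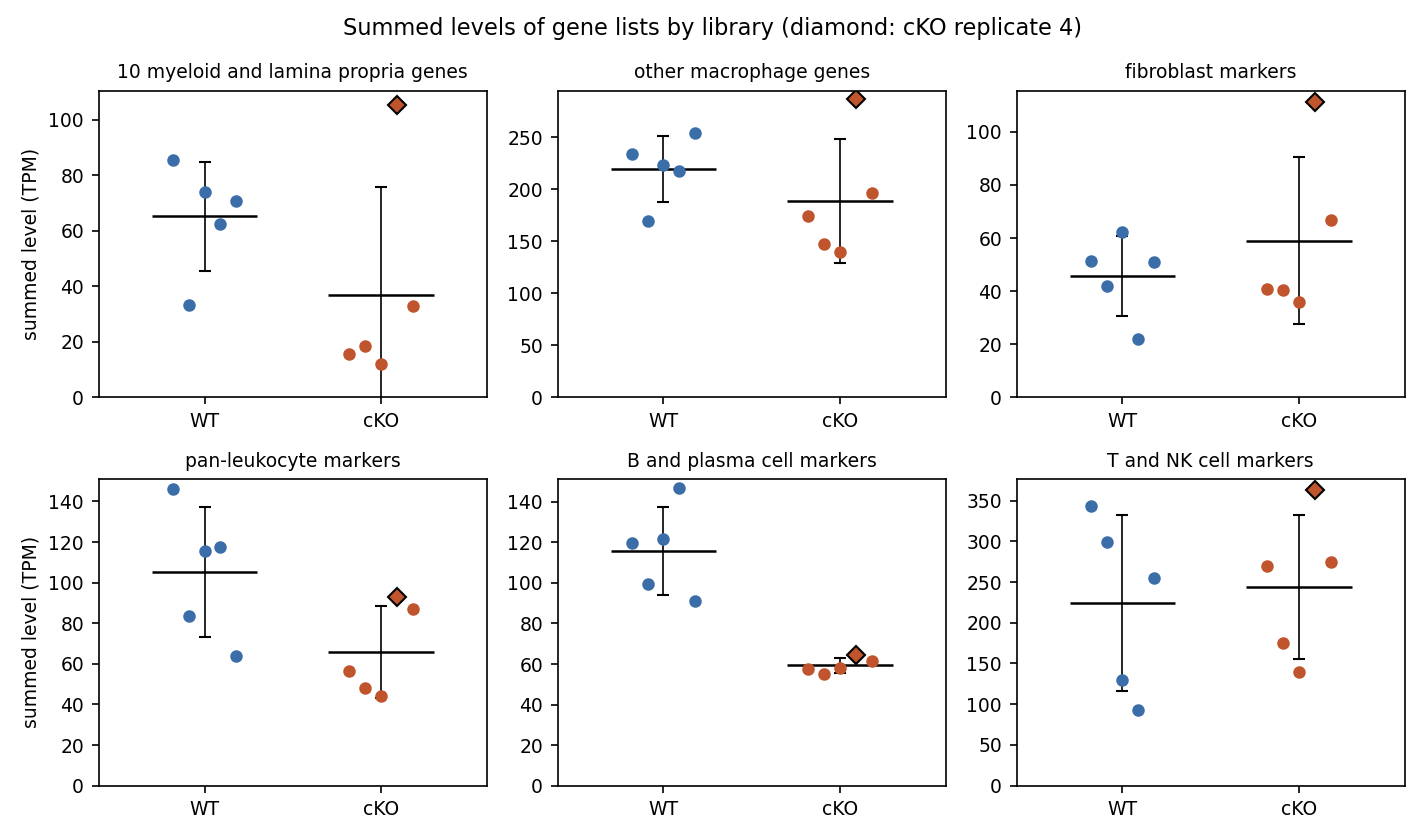
Summed level in TPM (vertical axes, from 0) of the 10 genes and of 5 marker lists in each library, with WT in blue and cKO in orange. Bars show mean ± SD over 5 animals, and the diamond is cKO replicate 4, which holds 105 TPM of the 10 genes and 111 TPM of fibroblast markers, the highest of the 10 libraries in both.

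All 10 genes had a negative log2 fold change, from −2.26 for Dnase1l3 to −0.33 for Lyz2, with a median of −1.15 against −0.03 over all genes tested. The 5 genes past the threshold were Dnase1l3, Adamdec1, C1qa, C1qb and C1qc. Of all genes tested, 12.7% were called lower, and since this contrast chose the genes nothing is read from their share. The cKO and WT libraries did not overlap in Dnase1l3 and Adamdec1, as in 7.63% of all genes in that direction, and they overlapped in the other 8. Without cKO replicate 4 the median was −1.58, and 7 genes were called with Csf1r and Itgax added, against 9.78% of all genes called lower. That library was the highest cKO library in 8 of the 10 genes and was singled out by these values. Lower values of those genes without it follow from that choice and are no support. The number called fell to 3 when WT replicate 3, 4 or 5 or cKO replicate 1 or 2 was left out, and these were Dnase1l3, Adamdec1 and C1qc each time.

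**Figure D2:**
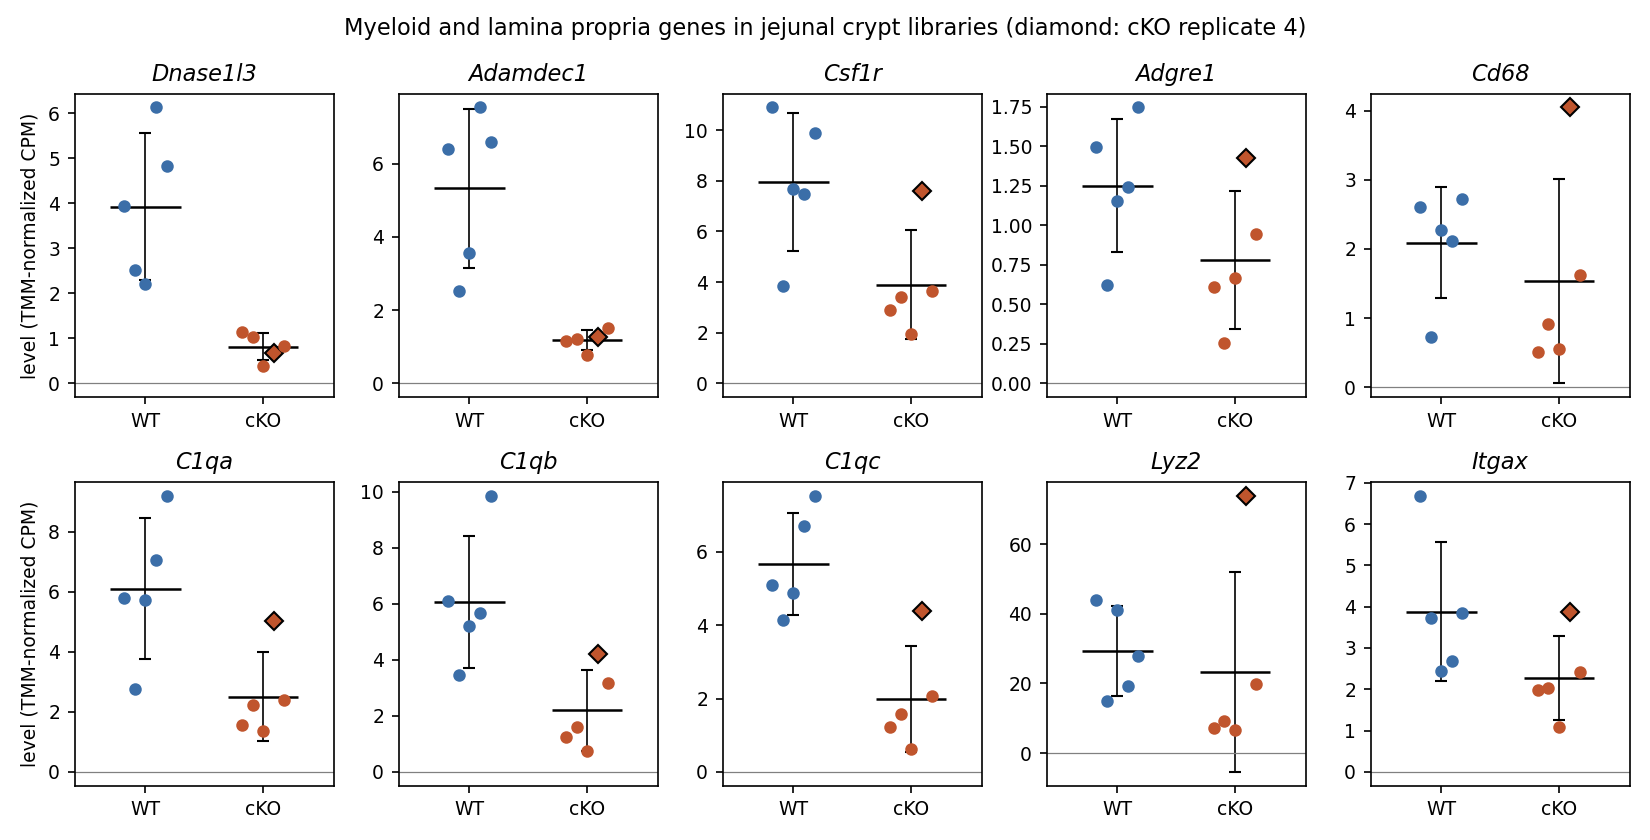
Level of each gene in CPM (vertical axes) in 5 WT (blue) and 5 cKO (orange) libraries, with mean ± SD as bars and cKO replicate 4 as a diamond. In Dnase1l3 and Adamdec1 all cKO points lie below all WT points, whereas in the other 8 genes the diamond is the highest cKO point and lies within or above the WT range.

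Dnase1l3 encodes a secreted nuclease of macrophages and dendritic cells that digests DNA wrapped in nucleosomes and in the vesicles of dying cells. The gene lies on chr14:7964533-7994573 on the minus strand (GRCm38). WT libraries 1 to 5 held 3.93, 2.51, 2.21, 6.13 and 4.84 CPM, and cKO libraries 1 to 5 held 1.15, 1.03, 0.385, 0.680 and 0.833 CPM. The highest cKO library was below the lowest WT library, and cKO replicate 4 was not among the high ones. Its WT mean of 3.92 ± 1.63 CPM compared with a cKO mean of 0.815 ± 0.300 CPM (SD, n = 5 each), 4.80-fold lower by the fit (log2 fold change −2.26, standard error 0.34). The cKO values rest on 11 to 34 reads.

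Adamdec1 encodes a secreted metalloproteinase-like protein described in gut macrophages and in gut fibroblasts. It lies on chr14:68563380-68582095 on the minus strand, between Adam7 and Adam28, and the gap to Adam28 is 23931 bases. WT libraries 1 to 5 held 6.41, 2.51, 3.56, 7.54 and 6.58 CPM, and cKO libraries 1 to 5 held 1.15, 1.22, 0.769, 1.26 and 1.51 CPM. The cKO libraries were close to one another, with a coefficient of variation of 22.8% against 40.6% in WT, and none reached the lowest WT library. The WT mean was 5.32 ± 2.16 CPM and the cKO mean 1.18 ± 0.269 CPM (SD, n = 5 each), 4.50-fold lower (log2 fold change −2.17, standard error 0.30), and without cKO replicate 4 the log2 fold change was −2.19. The neighbor Adam28, a metalloproteinase gene of lymphocytes, was below the filter, at 0.358 ± 0.304 CPM in WT against 0.0410 ± 0.0737 CPM in cKO.

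C1qa, C1qb and C1qc encode the 3 chains that assemble into C1q, the recognition protein of the classical complement pathway that also coats dying cells. The genes lie side by side on the minus strand within chr4:136880129-136898803, with gaps of 3616 bases between C1qb and C1qc and 2851 bases between C1qc and C1qa. Their promoters are shown because the 3 genes moved together. RefSeq start sites on GRCm38 gave windows for C1qb and C1qc but not C1qa, and the capitals mark matches to GAGGAA or its reverse complement TTCCTC, the core of the site of PU.1, the factor encoded by Spi1. C1qb is the stretch chr4:136886201-136886350 and C1qc is chr4:136893066-136893164, both read from the minus strand.
C1qb: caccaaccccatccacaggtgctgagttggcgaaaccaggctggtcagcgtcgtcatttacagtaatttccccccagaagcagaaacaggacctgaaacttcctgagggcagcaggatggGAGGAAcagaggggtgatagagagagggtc
C1qc: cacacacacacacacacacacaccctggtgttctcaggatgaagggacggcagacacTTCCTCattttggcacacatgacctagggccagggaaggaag
Windows of 5 of the 10 genes were examined, and 3 of them held the motif on either strand (Cd68, C1qb and C1qc). The motif occurred in 28.3% of all 32851 promoter windows of 300 bases. The other genes, Csf1r among them, were not examined for the motif, so the count does not describe all 10. The match is a description of these letters and not of a bound site.

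The C1q genes were low in 4 of 5 cKO libraries. C1qa stood at 5.78, 2.76, 5.74, 7.07 and 9.20 CPM in WT libraries 1 to 5 and at 1.55, 2.21, 1.36, 5.03 and 2.38 CPM in cKO libraries 1 to 5. C1qb stood at 6.09, 3.44, 5.19, 5.66 and 9.86 CPM in WT and at 1.25, 1.59, 0.734, 4.22 and 3.18 CPM in cKO libraries. C1qc stood at 5.08, 4.13, 4.89, 6.70 and 7.53 CPM in WT and at 1.21, 1.59, 0.629, 4.39 and 2.08 CPM in cKO libraries. In each of the 3 genes cKO replicate 4 was above the lowest WT library, WT replicate 2, and the other 4 cKO libraries were below every WT library. The log2 fold changes were −1.28 (standard error 0.38) for C1qa, −1.46 (0.44) for C1qb and −1.51 (0.41) for C1qc, and without cKO replicate 4 they were −1.70, −1.84 and −2.04.

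Csf1r encodes the receptor for CSF1 and IL34 on which gut macrophages depend. WT libraries 1 to 5 held 10.9, 3.86, 7.67, 7.47 and 9.89 CPM, and cKO libraries 1 to 5 held 2.90, 3.39, 1.96, 7.58 and 3.63 CPM. Here too 4 cKO libraries were below every WT library and replicate 4 was near the WT mean of 7.96 CPM. The log2 fold change was −1.03 (standard error 0.36), and −1.42 without cKO replicate 4. An exon of Csf1r overlaps Hmgxb3 on the opposite strand, and since the strand setting of the counting is not given in the sources used here, reads of the overlap cannot be assigned with certainty.

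Adgre1 encodes F4/80, the surface receptor used to stain mouse macrophages, and Cd68 encodes macrosialin, a lysosomal glycoprotein of phagocytes. Adgre1, lowest of the 10 genes in TPM in WT, had 1.5, 0.620, 1.15, 1.24 and 1.75 CPM in WT and 0.607, 0.258, 0.664, 1.43 and 0.946 CPM in cKO libraries 1 to 5. Cd68 held 2.61, 0.723, 2.27, 2.11 and 2.73 CPM in WT and 0.505, 0.922, 0.560, 4.05 and 1.63 CPM in cKO libraries. The groups overlapped in both genes, and the highest of all 10 Cd68 values was that of cKO replicate 4. The log2 fold changes of −0.67 (standard error 0.39) for Adgre1 and −0.44 (0.56) for Cd68 became −1.01 and −1.21 without that library.

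Lyz2 encodes the lysozyme of macrophages and neutrophils, an enzyme that cuts bacterial cell walls. WT libraries 1 to 5 held 43.9, 14.9, 41.1, 19.2 and 27.9 CPM, and cKO libraries 1 to 5 held 7.08, 9.29, 6.61, 73.9 and 19.9 CPM. The groups overlapped, and cKO replicate 4 was above every WT library while cKO replicates 1, 2 and 3 were below every one. The log2 fold change of −0.33 (standard error 0.72) became −1.46 (0.45) without cKO replicate 4. All 10 neutrophil markers were below the filter, with Ly6g and Ngp at 0 in every library and a summed level of 0.340 to 3.04 TPM over the 10 libraries. One of them, Il1b, a cytokine that macrophages also make, was named after its values were seen. It had 9 to 30 reads in WT and 0 to 10 reads in cKO libraries. Without cKO replicate 4 it passed the filter and was called lower (log2 fold change −2.07). The filter was then met through the higher WT reads, which favors a lower call, so nothing is read from that call.

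Lyz2 lies 5475 bases from Lyz1, the lysozyme gene of Paneth cells. Their transcripts are 95.8% identical over 1264 aligned bases, and 24 of the 1217 windows of 100 bases in Lyz2 also occur in Lyz1, so some Lyz2 counts depend on how RSEM divides shared reads. Lyz1 fell to 4367 ± 549 CPM in cKO from 6607 ± 1655 CPM in WT (SD, n = 5 each, log2 fold change −0.60, adjusted p = 0.0134, edgeR's quasi-likelihood test), with every cKO library below every WT library. Lyz1 did not share the order of Lyz2 among cKO libraries. It was lowest in cKO replicate 4, at 3779 CPM, where Lyz2 was highest.

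Itgax encodes integrin alpha X (CD11c), carried by dendritic cells, by gut macrophages and by some intraepithelial lymphocytes. WT libraries 1 to 5 held 6.68, 3.72, 2.44, 2.68 and 3.86 CPM, and cKO libraries 1 to 5 held 1.99, 2.03, 1.08, 3.88 and 2.42 CPM. All cKO libraries but replicate 4 were below every WT library, and replicate 4 was second only to WT replicate 1. The log2 fold change was −0.76 (standard error 0.34), −1.04 without cKO replicate 4 and −0.48 without WT replicate 1. In Itgax 146 of 4790 windows of 100 bases are shared with Itgad, a related integrin gene.

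**Figure D3:**
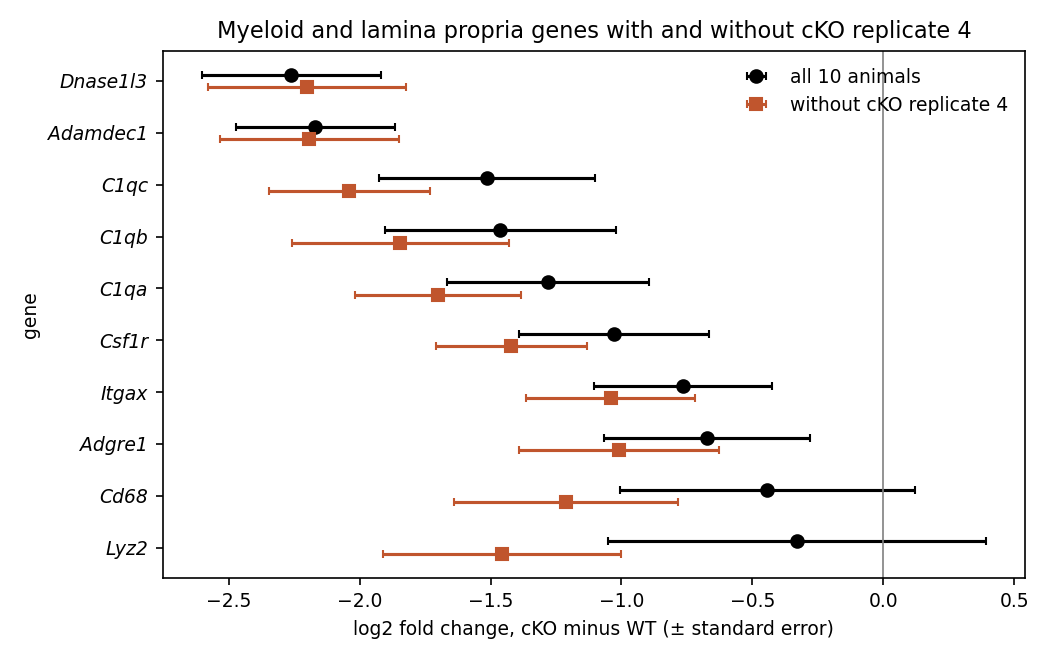
Log2 fold change of each gene in cKO minus WT (horizontal axis) with its standard error, from all 10 animals (black) and without cKO replicate 4 (orange). Dnase1l3 and Adamdec1 stay near −2.2 in both, and the largest shift is that of Lyz2, from −0.33 to −1.46.

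Per transcript length, Lyz2 was the most abundant of the 10 genes in both genotypes, with medians of 26.95 TPM in WT and 8.89 TPM in cKO. C1qa, C1qb and C1qc followed, with medians of 8.19, 7.94 and 6.14 TPM in WT and 2.73, 1.86 and 1.67 TPM in cKO. C1qa and C1qb did not differ in WT beyond their spread, since C1qa was the higher in 2 of 5 libraries, and neither did C1qb and C1qc, with C1qb the higher in 3 of 5. Adamdec1 was rank 5 in WT, with a median of 3.31 TPM (1.34 to 4.46 TPM), and rank 8 in cKO, with 0.600 TPM (0.390 to 0.760 TPM). In cKO it was not separated from Itgax, rank 7, which was the higher in 2 of 5 libraries. Dnase1l3 was rank 9 in WT, with 1.23 TPM, below Itgax in 3 of 5 libraries and so not separated from it, and last in cKO, with 0.210 TPM, below Adgre1 in 4 of 5 libraries. The order of Cd68, Csf1r and Itgax was the same in both genotypes, with WT medians of 2.64, 2.25 and 1.38 TPM and cKO medians of 1.05, 0.850 and 0.610 TPM.

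How far the 10 genes varied together depended on cKO replicate 4. After each genotype's mean was taken off, the 28 pairs among the 8 genes other than Dnase1l3 and Adamdec1 had Pearson correlations of 0.45 to 0.94 (median 0.80) over the 10 libraries. Csf1r, Cd68 and C1qa were among the closest, with r = 0.94 for Csf1r and Cd68 and for Cd68 and C1qa. Dnase1l3 and Adamdec1 correlated with each other at r = 0.84 (Spearman's rho 0.71), and at 0.82 without the 2 libraries farthest from the median of Adamdec1. Against the mean of the other 8, r was 0.23 (rho 0.14) for Dnase1l3 and 0.56 (rho 0.61) for Adamdec1. Without cKO replicate 4 the pairs among the 8 genes ran from 0.14 to 0.92 (median 0.66), and the pairs of Adamdec1 with the 8 had a median of 0.74 (0.37 to 0.85), so Adamdec1 was then no less tied to them than they were to one another. The pairs of Dnase1l3 with the 8 had a median of 0.44 without that library (−0.026 to 0.71). The correlations with the mean of the 8 rose to 0.48 for Dnase1l3 and 0.79 for Adamdec1 without cKO replicate 4, and to 0.32 and 0.76 without cKO replicates 3 and 4, the libraries farthest out. All points share their library and its depth, and the low counts of Dnase1l3 and Adgre1 carry a large counting error.

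**Figure D4:**
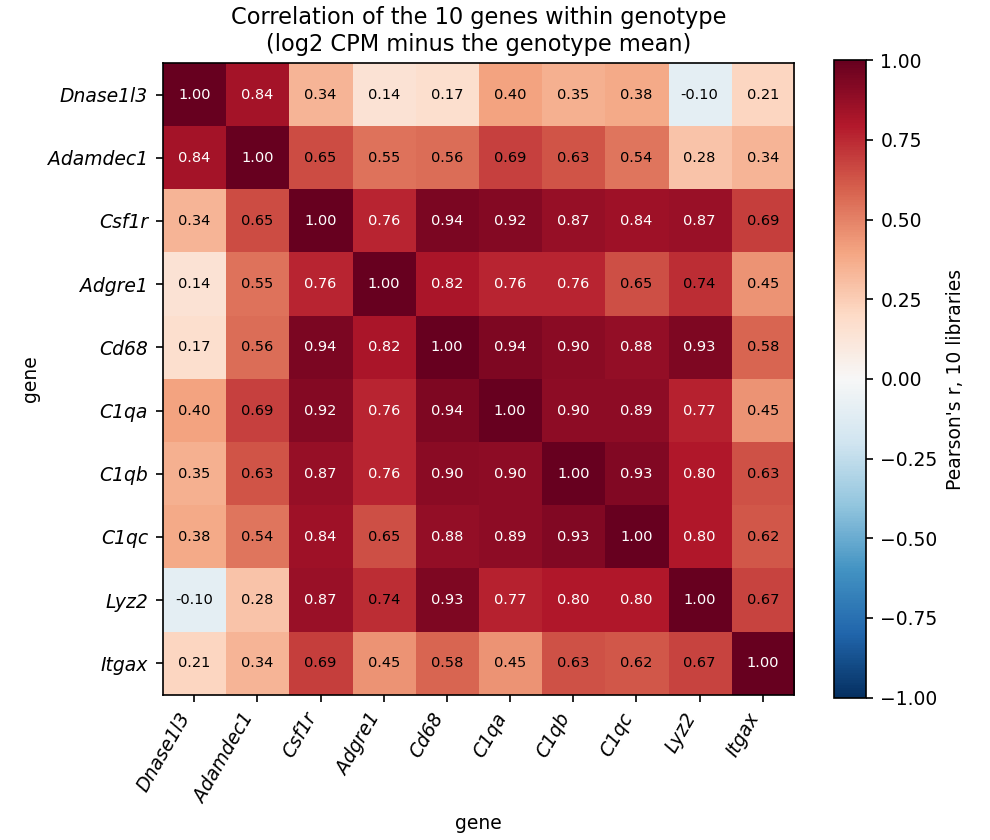
Pearson correlation (color, from −1 to 1) of each pair of genes over 10 libraries, on log2 CPM with each genotype's mean taken off. The block of 8 genes from Csf1r to Itgax holds values of 0.45 to 0.94, whereas the Dnase1l3 row holds −0.10 to 0.40 outside its value of 0.84 with Adamdec1.

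Set against C1q as a common yardstick, Dnase1l3, Adamdec1, Lyz2, Cd68 and Adgre1 lay outside their WT ranges in cKO replicate 4. Dnase1l3, Adamdec1, Lyz2 and Cd68 did so by less in cKO replicate 5, and Cd68 did so in cKO replicates 2 and 3 as well. Per 100 counts of the 3 C1q genes, Dnase1l3 gave 13.9 to 31.6 counts in WT and 4.99 in cKO replicate 4, and Adamdec1 gave 22.5 to 38.8 counts in WT and 9.23 in that library. Lyz2 gave 99.0 to 259.9 counts per 100 C1q counts in WT and 542 there, and Cd68 gave 7 to 15.4 counts in WT and 29.7 there. Adgre1 gave 6 to 8.83 counts in WT and 15.1, 4.79, 24.4, 10.5 and 12.4 counts in cKO libraries 1 to 5. It was thus above its WT range in every cKO library but replicate 2, where it was below it. Over all cKO libraries the median of Adamdec1 was 22.6 counts against 24.8 in WT, and that of Dnase1l3 was 14.1 counts against 23.2. Csf1r gave a median of 63.0 counts in cKO against 38.4 in WT, with overlapping ranges of 47.5 to 72.3 and 37.2 to 64.3. The cKO medians of Cd68, Adgre1, Itgax and Lyz2 were 20.5, 12.4, 37.7 and 242 counts. Their WT medians were 10.9, 6.57, 15.5 and 144 counts, and the ranges of the genotypes overlapped in each.

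The correlation with lists of other cells differed by gene, again over 10 libraries with genotype means taken off and as a description. Lyz2 had r = 0.92 with the mean of the fibroblast markers, Cd68 had 0.79, and Dnase1l3 and Adamdec1 had −0.36 and 0.02. The highest of all libraries in Lyz2, in Cd68 and in the summed fibroblast markers was cKO replicate 4. No correlation of this paragraph was computed without that library, so how far they rest on it was not tested. Itgax had r = 0.83 with the T and NK cell markers, against 0.09 to 0.44 for the C1q genes, Csf1r, Adgre1, Cd68 and Lyz2. The 10 genes closest to the mean of the 8, among 12828 candidates with at least 1 CPM, were Mpeg1 (r = 0.97), Apoe (0.95), Pla2g7, Pirb, Syne1, Zeb2, Crtc2, Bmp1, Gnat2 and B3gnt8 (0.90). That mean lay farthest out in cKO replicate 4, at 1.15 in log2 CPM from its genotype mean, against −0.72 to 0.38 in the other libraries. The ranking was not repeated without it. Mpeg1, the macrophage pore protein perforin-2, stood at 8.63 CPM in WT against 5.44 CPM in cKO, and Apoe, a lipid carrier made by macrophages, had 46.2 and 20.2 CPM. Neither passed the test (adjusted p = 0.332 and 0.111, edgeR's quasi-likelihood test), and without cKO replicate 4 both did, at log2 fold changes of −1.28 and −1.77.

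Among 35 further macrophage genes, 25 passed the filter, of which 6 fell and 2 rose, and their log2 fold changes had a median of −0.48. Over all genes 12.7% were called lower and 15.6% higher. The genes that fell were Ms4a7, Aif1, Fcgr1, Spi1, Csf2ra and Lgmn. Without cKO replicate 4 the numbers were 15 lower and 2 higher, with a median of −1.03, against 9.78% of all genes called lower.

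Aif1, the cytoskeletal protein IBA1 used to stain macrophages, fell to 0.481 ± 0.111 CPM in cKO from 1.76 ± 0.688 CPM in WT (SD, n = 5 each, log2 fold change −1.86, adjusted p = 0.00204, edgeR's quasi-likelihood test). Ms4a7, a membrane protein of resident macrophages, fell to 0.433 ± 0.231 CPM in cKO from 1.62 ± 0.645 CPM in WT (log2 fold change −1.88, adjusted p = 0.00513). Spi1, which encodes the myeloid transcription factor PU.1, fell to 0.726 ± 0.332 CPM in cKO from 1.74 ± 0.427 CPM in WT (log2 fold change −1.26, adjusted p = 0.0127). In CPM every cKO library was below every WT library in all 3 genes, cKO replicate 4 included, as in 7.63% of all genes. In TPM this held for Aif1 only. Spi1 had 1.31 to 1.7 TPM in WT and 0.32 to 2.02 TPM in cKO, and Ms4a7 had 1.1 to 3.27 and 0.13 to 1.6 TPM. The call of Spi1 was lost with an offset for effective transcript length (log2 fold change −0.60, adjusted p = 0.275, edgeR's quasi-likelihood test). It was also lost with limma on log2 TPM (−0.83) and without WT replicates 3 and 4 (−1.21). Csf2ra, the receptor chain for GM-CSF, and Lgmn, a lysosomal protease, fell less, with log2 fold changes of −0.49 and −0.45 (adjusted p = 0.0128 and 0.0111). Lgmn was named after its value was seen, to complete the count. The call of Fcgr1, a receptor for IgG at 0.563 CPM in WT against 0.154 CPM in cKO (log2 fold change −1.83, adjusted p = 0.0445), was lost when any library other than WT replicate 2 or cKO replicate 4 was left out, with values from −1.88 to −1.51.

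Mertk and Ctss rose. Mertk, a receptor for dying cells, rose to 79.7 ± 17.7 CPM in cKO from 35.5 ± 9.83 CPM in WT (SD, n = 5 each, log2 fold change 1.17, adjusted p = 0.00455, edgeR's quasi-likelihood test). Ctss, the protease cathepsin S, rose to 84.8 ± 11.3 CPM in cKO from 56.7 ± 7.77 CPM in WT (log2 fold change 0.58, adjusted p = 0.00344). Every cKO library was above every WT library in both genes, as in 12% of all genes. In TPM the WT means were 11.1 for Mertk and 58.0 for Ctss, against 2.25 for Csf1r and 31.3 for Lyz2. Which cells carried the Mertk and Ctss transcripts was not tested. Of the genes on the list that did not pass, Cd14 had 10.3 and 7.57 CPM in WT and cKO, Itgam 7.08 and 6.23 CPM, and Hpgds 4.83 and 4.96 CPM. Timd4, a receptor of long-lived gut macrophages, was below the filter with 5 to 17 reads in WT and 1 to 3 reads in cKO libraries.

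**Figure D5:**
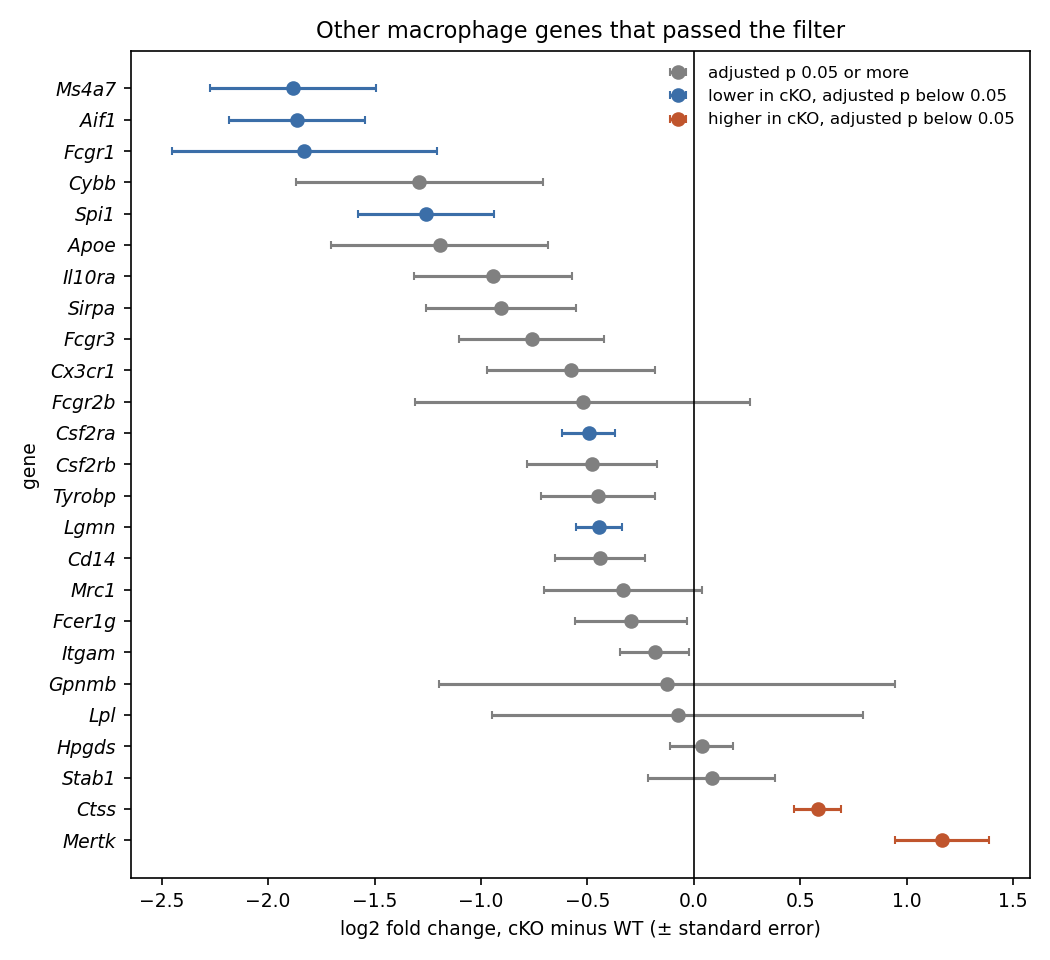
Log2 fold change in cKO minus WT (horizontal axis) with standard error for the 25 other macrophage genes that passed the filter, colored by adjusted p and direction. The 6 genes lower in cKO lie between −1.88 and −0.45 and the 2 higher ones between 0.58 and 1.17.

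Neither ligand of CSF1R passed the test. Csf1, its main ligand, stood at 2.39 ± 0.569 CPM in WT against 1.81 ± 0.555 CPM in cKO (SD, n = 5 each, log2 fold change −0.40, adjusted p = 0.255, edgeR's quasi-likelihood test), and Il34 had 0.450 ± 0.164 and 0.639 ± 0.222 CPM (adjusted p = 0.277). Of the 11 ligands and monocyte chemokines on the list 5 passed the filter, none fell (0 also at an unadjusted p under 0.05 and in DESeq2) and 2 rose. Cx3cl1, the membrane-bound chemokine for CX3CR1 on gut macrophages, rose to 45.7 ± 6.33 CPM in cKO from 26.2 ± 6.41 CPM in WT (log2 fold change 0.80, adjusted p = 0.00417), and Cxcl16, a chemokine for T cells, rose to 7.04 ± 1.23 CPM in cKO from 4.26 ± 1.13 CPM in WT (log2 fold change 0.73, adjusted p = 0.0147). Every cKO library was above every WT library in Cx3cl1, while those of Cxcl16 overlapped.

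Outside C1q, 13 of 15 complement genes passed the filter, of which 1 fell and 2 rose, with a median log2 fold change of −0.66. Without cKO replicate 4 the genes that fell were C1ra, C1s1 and Cd93, against 9.78% of all genes called lower, and the median was −1.0. C1s1 and Cd93 were named after their calls were seen. Cd55 and Cfb, a membrane inhibitor and an activator of the alternative pathway, rose to 19.9 and 102 CPM in cKO, against 13.3 and 76.9 CPM in WT (log2 fold changes 0.58 and 0.41, adjusted p = 0.00270 and 0.00775, edgeR's quasi-likelihood test). C1ra, a protease that binds C1q, stood at 15.1 CPM in WT against 8.99 CPM in cKO (log2 fold change −0.75, adjusted p = 0.0349). Its call was lost when any library other than WT replicates 2 and 4 or cKO replicate 4 was left out, with values from −0.78 to −0.65. In cKO replicate 4 the summed level of the list was 142 TPM, against 82.9 to 99.1 TPM in the other cKO libraries and 79.5 to 155 TPM in WT.

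No relative of Dnase1l3 or Adamdec1 that passed the filter was called lower. Of 7 other deoxyribonuclease genes that passed the filter, none fell and 2 rose, or 1 without cKO replicate 4. Dnase1l1 rose to 11.7 ± 0.987 CPM in cKO from 8.48 ± 1.31 CPM in WT (SD, n = 5 each, log2 fold change 0.47, adjusted p = 0.0110, edgeR's quasi-likelihood test). Dnase1, the secreted nuclease of body fluids, stood at 13.2 ± 6.89 CPM in WT against 40.4 ± 27.7 CPM in cKO (log2 fold change 1.61, adjusted p = 0.0461), and its call was lost when any library other than WT replicates 1 and 2 or cKO replicate 3 was left out, with values from 1.13 to 1.75. None of 7 other ADAM genes that passed the filter was called, and their log2 fold changes ran from −0.51 to 0.14. At an unadjusted p under 0.05 in edgeR, 1 ADAM gene and 0 deoxyribonuclease genes were lower, and DESeq2 called 0 of either lower. Adam10 had 137 and 149 CPM in WT and cKO.

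Marker lists of the other cells that crypts can carry are given as counts, beside 12.7% of all genes called lower and 15.6% called higher. Without cKO replicate 4 the share of all genes called lower was 9.78%. Of the 7 B and plasma cell markers that passed the filter 3 fell and all 7 were negative, and their summed level did not overlap between genotypes, at 91.2 to 147 TPM in WT and 55.1 to 64.7 TPM in cKO crypts. Most of that sum was Sdc1, also an epithelial proteoglycan, with means of 68.7 TPM in WT and 47.7 TPM in cKO and overlapping groups. Among the other immune lists, 1 of 5 dendritic cell markers and 1 of 11 T and NK cell markers fell. Of 5 monocyte markers 1 fell and 1 rose. The monocyte marker that rose was Plac8, with means of 574 CPM in WT and 1136 CPM in cKO, and which cells carried it was not tested. In the mast cell and eosinophil list 1 of 4 markers rose, and none of 8 pan-leukocyte markers was called, although all 8 were negative. Of 12 fibroblast markers none fell and 1 rose (median log2 fold change −0.34), and without cKO replicate 4 the number that fell was 5 (median −1.54). Of the endothelial markers 2 of 7 fell, of those of smooth muscle and glia 1 of 5, and of those of erythrocytes none of 3, with all 3 negative. At an unadjusted p under 0.05 in edgeR, 2 pan-leukocyte, 1 fibroblast and 2 erythrocyte markers were lower, and DESeq2 called 2, 0 and 2 of them lower. Without cKO replicate 4 the numbers that fell were 2 for B and plasma cells, 0 for dendritic cells, 1 for pan-leukocyte markers and 2 for erythrocytes. The epithelial markers that define the sample were high in both genotypes, with a summed level of 3998 to 4395 TPM in WT and 4081 to 4771 TPM in cKO crypts, and 2 of 8 rose, or 1 without cKO replicate 4. Of 6 Paneth cell markers, Lyz1 among them, 4 fell. The part of these cells in the values of the 10 genes was not tested.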

How the data were processed

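Poly(A) RNA of jejunal crypts was sequenced from 5 WT and 5 Arid3a cKO mice, grouped by the genotype in the sample labels, with replicate numbers from the titles. The authors used the nf-core/rnaseq pipeline, with STAR for alignment and RSEM for expected counts on Ensembl gene models of GRCm38, and deposited the expected counts without filtering or normalization between libraries. RSEM splits reads that match several genes, so expected counts need not be whole. The TPM and FPKM values deposited by the authors are scaled by transcript length, and FPKM was not used.

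The rounded values were tested with edgeR 4.0.16 under R 4.3.3 (filterByExpr, minimum count 10, minimum total count 15, TMM, robust quasi-likelihood test, genotype only, Benjamini-Hochberg adjustment over 14719 genes, threshold 0.05). The script was tested on simulated counts. CPM use TMM-normalized library sizes, and values are mean ± SD over 5 animals. Correlations used log2 CPM with a pseudocount of 0.5. DESeq2 1.42.0, limma 3.58.1 on log2 TPM (pseudocount 0.1), voom, other scalings and filters, a replicate block and left-out libraries were alternatives. Gene coordinates and transcripts are those of GENCODE on GRCm38, and promoter windows those of RefSeq.

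The 10 genes and the 18 marker lists were chosen with earlier results of these data known. The text names the 10 genes, Arid3a and close relatives and ligands, up to 8 called and the 4 uncalled genes of highest CPM of the other macrophage list, up to 3 called genes and the gene of highest CPM of the ligand, complement, deoxyribonuclease and ADAM lists, and the 10 genes that correlate best with the 8 genes other than Dnase1l3 and Adamdec1. A gene of the other macrophage list is not reported here, and the list's counts leave it out. Lists of other cell types, for which the rule also chose genes, are given as counts, and their genes are named only where they bear on a count or a sum. Per library, 27050455 to 31053622 counts were available. The p-values set the difference between the genotypes against the spread between these animals.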

Additional observations from a re-analysis of the deposited data

Results flagged for a closer look

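In 6 of 106 sets of 5 libraries, 1 library stood far from the other 4 relative to their whole range, where chance flags about 1 in 20 sets, or 5.3 here. Of the 6, 4 were cKO replicate 4. In that library Lyz2 was at 73.9 CPM with the next cKO library at 19.9 CPM, and C1qa was at 5.03 CPM with the next at 2.38 CPM. The summed level of the 10 genes was 105 TPM against 33.0 TPM in the next, and that of the complement genes outside C1q was 142 TPM against 99.1 TPM. In WT mice, Itgam stood at 10.2 CPM in replicate 1 with the next at 6.55 CPM, and Hpgds at 4.24 CPM in replicate 3 with the nearest at 4.82 CPM. No cause of these values was tested.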

How the results depend on the processing

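All 10 genes kept a negative log2 fold change under each of the 20 alternatives in which they were tested (Adgre1 was not tested with at least 10 counts in every library). The genes were chosen on this same contrast, so the direction is no independent support. Cd68 and Lyz2 depended most on 1 library, with −1.21 to −0.22 and −1.46 to −0.091 when each library was left out in turn, the lower end in both without cKO replicate 4 and the upper end without cKO replicates 1 and 3, respectively. The number of the 10 genes called was 2 without a filter, 2 without WT replicates 3 and 4, which were known from earlier results to stand apart, and 3 to 7 with each library left out. The number of other macrophage genes called lower, 6, was 3 without WT replicates 3 and 4 and 5 to 15 with each library left out, 15 without cKO replicate 4.

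Over all genes, the 4167 called became 2143 without WT replicates 3 and 4 and 3007 to 4684 with each library left out. The 1869 lower genes became 4030 with library size only, which shifted the median of all genes from −0.03 to −0.16, 671 without WT replicates 3 and 4, and 1131 to 2112 with each library left out, fewest without WT replicate 4. The 2298 higher genes became 1399 with limma on log2 TPM and 1472 without WT replicates 3 and 4. With a replicate block 1191 genes were lower. The labels give no pairing by replicate number. Deviations of libraries of the same number correlated at −0.16 to 0.13, and 0 of them correlated best with their own number. Whether these libraries shared anything else was not tested. The cause of these shifts was not tested.

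Genes that were not called changed sign as follows. With library size only the log2 fold changes were −0.092 for Hpgds and −0.017 for Adam10, with limma on log2 TPM −0.087 for Adam10, and without WT replicates 3 and 4 −0.0038 for Hpgds. With each library left out they ran from −0.050 to 0.11 for Hpgds and −1.01 to 0.11 for Pirb. At 26.4 to 29.9 reads per CPM, counting error limits Adgre1, Cd68 and Dnase1l3 most.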
